A study of Mus musculus with 2 samples.

Results

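Mrc1, Fcrls, Folr2, Stab1, Cd163, Igf1, Gdf3, Pmp22 and Igfbp4 are genes that tissue macrophages with a scavenging, resident-like character are known to use. These 9 of the 31053 genes in the files were followed by symbol in tumour myeloid cells. They were chosen with earlier results of the same cells in view, in which several were lower in macrophages of the knockout library. Their differences between the libraries are therefore descriptions, and no test was made on them. The study sorted CD45+ immune cells from tumours of C57BL/6 mice and counted RNA molecules per cell with the 10x 5′ single-cell kit, as unique molecular identifiers (UMIs). There were 2 libraries, 1 labelled Ythdf2 cKO, a conditional knockout, and 1 labelled WT. YTHDF2 is a reader protein that binds m6A-modified RNA and speeds its decay. No source used here gives the tumour line, the Cre driver, the deleted exons or the number of mice behind each library. With 1 library per label no difference has a replicate check, and every interval below covers counting error only.

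The cKO-labelled library held 11398 barcodes and 121321782 UMIs, and the WT-labelled library 14404 barcodes and 128952491 UMIs. After filtering, 9086 and 10992 cells were kept, with a median of 8003.5 and 5130.5 UMIs. The libraries shared 28 barcodes. Cells were called C1q-high when C1qa, C1qb and C1qc, which encode the chains of complement C1q, together reached 5 of every 10000 UMIs of a myeloid cell. C1q-high cells were 713 of 3312 myeloid cells (21.5%, 95% exact interval 20.1 to 23.0) in the cKO-labelled library and 2682 of 4992 (53.7%, 52.3 to 55.1) in the WT-labelled library. The other myeloid cells numbered 2599 and 2310. Ythdf2 itself was at 406 CPM (its UMIs per 1000000 UMIs summed over the cells) in C1q-high cells of the cKO-labelled library and 78.8 CPM in those of the WT-labelled library, and at 338 and 54.9 CPM in the other myeloid cells. Its RNA was thus higher under the knockout label, against that label. Reads from the 5′ end that lie outside the deleted part would not check the deletion, so the groups are named here by their labels.

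Resident macrophages of many tissues clear sugars, proteins, lipoproteins and haem from their surroundings through scavenger receptors. Mrc1 encodes the mannose receptor CD206, Stab1 the scavenger receptor stabilin-1, Cd163 the receptor for haptoglobin-bound haemoglobin, Folr2 the folate receptor beta, and Fcrls a scavenger receptor-like protein known from mouse microglia. Igf1 encodes insulin-like growth factor 1, Igfbp4 a protein that binds such factors, and Gdf3 a ligand of the TGF-beta superfamily. Pmp22 encodes a membrane protein known from peripheral myelin. In GRCm38, with GENCODE vM21 gene models, all 9 are protein-coding genes, with Mrc1 at chr2:14229392-14332057, Fcrls at chr3:87250758-87263738, Folr2 at chr7:101839988-101857194, Stab1 at chr14:31139013-31168641 and Igf1 at chr10:87858265-87937042. Cd163 at chr6:124304656-124330527 and Gdf3 at chr6:122605403-122610087 share a chromosome, as do Pmp22 at chr11:63128982-63159547 and Igfbp4 at chr11:99041244-99054392.

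The stretch before the RefSeq start site (build GRCm38.p6) is shown for Mrc1, Folr2 and Stab1. Each shows 250 bases, 5′ to 3′ on the gene's strand, with capitals for 2 motifs of transcription factors known in macrophages, on either strand. One is the MAF half-site TGCTGA and the other the PU.1 core GAGGAA, whose reverse complement is TTCCTC. Mrc1 is on the plus strand at chr2:14229164-14229413, Folr2 on the minus strand at chr7:101857191-101857440 and Stab1 on the minus strand at chr14:31168642-31168891.
Mrc1: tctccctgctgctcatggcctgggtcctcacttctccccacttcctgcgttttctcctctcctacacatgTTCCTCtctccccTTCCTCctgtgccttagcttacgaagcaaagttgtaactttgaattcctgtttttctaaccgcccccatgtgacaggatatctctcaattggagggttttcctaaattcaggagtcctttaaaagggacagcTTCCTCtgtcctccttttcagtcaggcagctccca
Folr2: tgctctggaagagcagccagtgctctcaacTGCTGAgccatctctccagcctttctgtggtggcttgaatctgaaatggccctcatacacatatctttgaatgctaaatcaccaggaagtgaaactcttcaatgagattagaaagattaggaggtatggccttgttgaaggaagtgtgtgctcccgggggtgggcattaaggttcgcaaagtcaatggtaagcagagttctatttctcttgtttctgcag
Stab1: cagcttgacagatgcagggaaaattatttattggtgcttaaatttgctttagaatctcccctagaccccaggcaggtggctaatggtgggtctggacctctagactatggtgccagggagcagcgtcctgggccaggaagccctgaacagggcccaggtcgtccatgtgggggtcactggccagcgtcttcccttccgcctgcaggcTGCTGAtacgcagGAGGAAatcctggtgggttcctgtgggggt
The Mrc1 stretch holds 3 PU.1 cores, the Folr2 stretch 1 MAF half-site, and the Stab1 stretch 1 of each. RefSeq windows, from 250 bases before to 50 after a start site, matched 8 of the 9 members, and the window nearest the annotated gene start was read. A MAF half-site lay in 3 of these 8 windows, against 19.5% of 32851 windows of the same length over all genes. A PU.1 core lay in 4 of the 8, against 28.3% of all windows, and 2 members had both. Cd163, Pmp22 and Igfbp4 had neither motif in the window read. For Igf1 the start site of that window lay 2846 bases from the annotated gene start. No copies of the motifs overlapped. These are matches of letters only. Gdf3 was not matched.

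The uptake receptors were low in C1q-high cells of the cKO-labelled library. Mrc1 was at 129 CPM (123 to 135) in the cKO-labelled library and 498 CPM (492 to 504) in the WT-labelled library, 3.87-fold lower (3.69 to 4.05). Stab1 was at 130 CPM (124 to 136) and 372 CPM (366 to 377), 2.86-fold lower (2.73 to 2.998). Fcrls, at 18.6 CPM (16.5 to 20.9) and 141 CPM (138 to 144), had the widest gap of the 9, 7.58-fold (6.74 to 8.55). Folr2 had the narrowest among members at 10 CPM or more, with 42.4 CPM (39.3 to 45.8) and 107 CPM (104 to 110), 2.52-fold lower (2.32 to 2.74). RNA of Cd163, the haemoglobin receptor gene that often defines such macrophages, was hardly detected in either library. It had 8 UMIs in all C1q-high cells of the cKO-labelled library and 70 in those of the WT-labelled library, or 0.513 and 1.42 CPM. These counts are too low for a statement on the receptor.

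The secreted factors and Pmp22 lay lower as well. Igf1 was at 20.01 CPM (17.8 to 22.4) in the cKO-labelled library and 114 CPM (111 to 117) in the WT-labelled library, 5.69-fold lower (5.08 to 6.401). Its binding protein Igfbp4 was at 20.8 CPM (18.6 to 23.2) and 96.4 CPM (93.7 to 99.2), 4.64-fold lower (4.15 to 5.21). Gdf3 was at 19.7 CPM (17.6 to 22.1) and 66.4 CPM (64.2 to 68.7), 3.36-fold lower (2.99 to 3.79). Pmp22 was at 25.1 CPM (22.7 to 27.8) and 106 CPM (103 to 109), 4.23-fold lower (3.81 to 4.70). For each of these 8 genes the counting intervals of the libraries were apart.

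A gene was counted as tested when it reached 10 CPM in either library, and as lower or higher at 1.5-fold on the log2(CPM + 1) scale. All 8 members that passed were lower, and all 8 were at 10 CPM or more in both libraries. Of the 8037 genes tested in C1q-high cells, 9.53% were lower and 9.12% higher. The members were chosen from this contrast, so nothing is read from their count. Their median log2 ratio was -1.99, beside -0.07 over all genes tested. The C1q genes that chose the cells were themselves lower per UMI, with C1qa at 1509 CPM in the cKO-labelled library and 2555 CPM in the WT-labelled library, C1qb at 1935 and 2728 CPM and C1qc at 1017 and 1722 CPM.

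**Figure D1:**
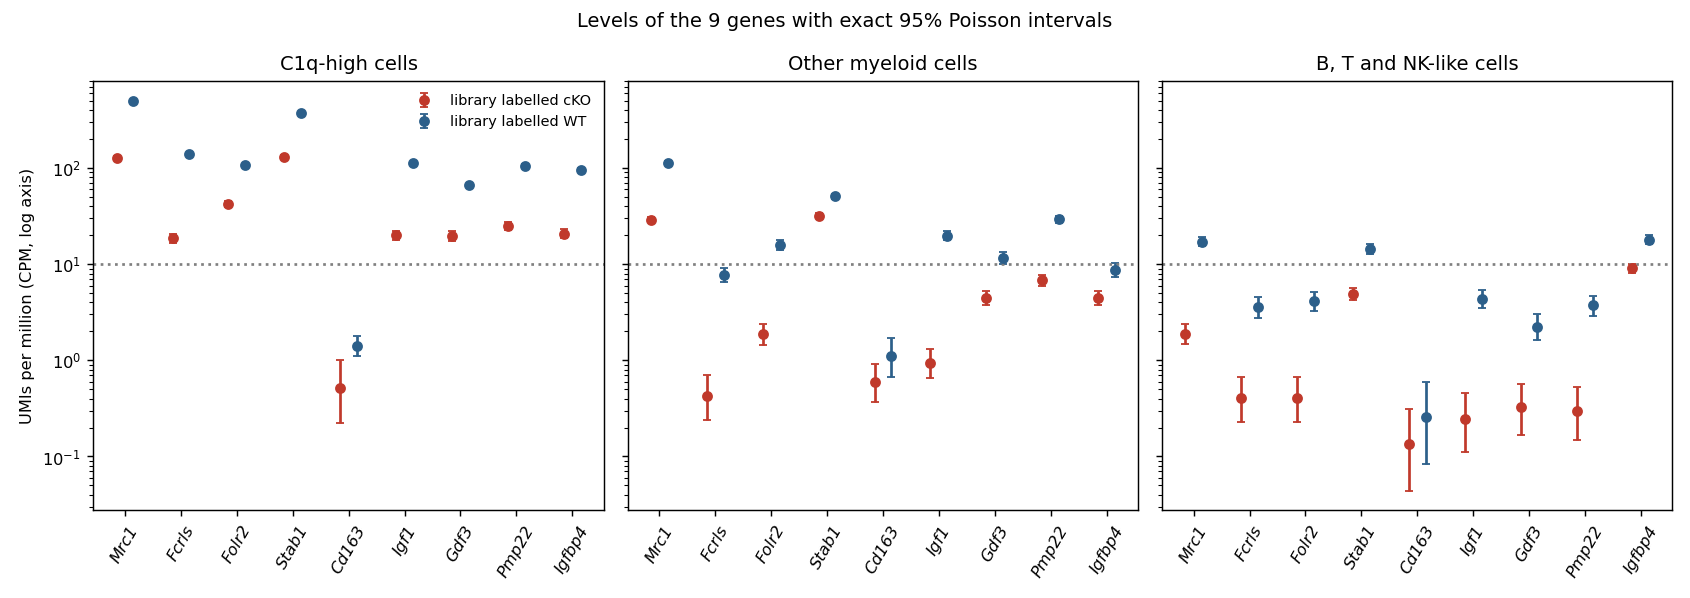
Level of each of the 9 genes (CPM, log axis) in C1q-high cells, other myeloid cells and B, T and NK-like cells, as a point for the library labelled cKO (left of each pair) and the library labelled WT (right), with 95% exact Poisson intervals that cover counting error only and a dotted line at 10 CPM. Mrc1 is at 129 and 498 CPM in C1q-high cells and at 29.1 and 112 CPM in other myeloid cells, and Cd163 lies under 2 CPM in all 3 panels.

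In the other myeloid cells, those under the C1q threshold, Mrc1 was at 29.1 CPM (27.3 to 30.9) in the cKO-labelled library and 112 CPM (108 to 117) in the WT-labelled library, 3.87-fold lower (3.58 to 4.17), a ratio like that in C1q-high cells. Stab1, at 32.0 CPM (30.1 to 33.9) and 50.9 CPM (47.7 to 54.3), was 1.59-fold lower (1.46 to 1.74), and in 10 of 16 alternative settings its gap was under 1.5-fold (log2 ratios from -0.71 to -0.42 over all 16). Igf1 was at 0.942 CPM, from 33 UMIs, and 19.8 CPM, from 358 UMIs, 21.1-fold lower (14.7 to 31.1). Folr2 was at 1.88 and 16.0 CPM, Gdf3 at 4.45 and 11.6 CPM and Pmp22 at 6.82 and 29.3 CPM. Fcrls (0.428 and 7.76 CPM), Igfbp4 (4.48 and 8.76 CPM) and Cd163 (0.600 and 1.11 CPM) stayed under 10 CPM in both libraries. The 6 members that passed the filter were lower, where 2.45% of 7441 genes tested were lower and 3.08% higher. However, 4 of the 6 passed through the WT-labelled library alone, which fixed their direction though not a gap of 1.5-fold. The other 2 were Mrc1 and Stab1.

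The make-up of the C1q-high cells differed between the libraries, and the name macrophage did not hold for most of them in the cKO-labelled library. There 218 of 713 (30.6%) lay in macrophage-like clusters and 461 (64.7%) in monocyte-like clusters, whereas 2022 of 2682 (75.4%) and 505 (18.8%) did so in the WT-labelled library. Their median C1q level was 24.7 per 10000 UMIs in the cKO-labelled library and 61.8 in the WT-labelled library. The median depth was 16198 and 15121.5 UMIs per cell. A UMI of the T cell gene Cd3e was found in 23.4% of C1q-high cells in the cKO-labelled library and 32.0% in the WT-labelled library, although doublets had been removed.

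Within the macrophage-like clusters alone, the members stayed lower with narrower gaps. There Mrc1 was at 182 CPM in the cKO-labelled library and 532 CPM in the WT-labelled library, 2.92-fold lower (2.76 to 3.08). Fcrls was at 37.5 and 157 CPM, 4.19-fold lower (3.72 to 4.73), and Igf1 at 35.1 and 124 CPM, 3.53-fold lower (3.12 to 4.01). Folr2 was at 76.7 and 117 CPM, 1.52-fold lower (1.40 to 1.66), and Stab1 at 188 and 408 CPM, 2.17-fold lower (2.06 to 2.30). Gdf3, at 21.6 and 72.2 CPM, kept nearly its whole gap, 3.34-fold (2.85 to 3.94). Pmp22 was 3.04-fold lower (2.70 to 3.44) and Igfbp4 2.97-fold lower (2.63 to 3.37). These C1q-high cells had a median of 30533 UMIs in the cKO-labelled library and 19168 in the WT-labelled library. A Cd3e UMI was found in 55.0% and 39.9% of them, the reverse of the order over all C1q-high cells. The part of depth and of T cell RNA was not tested.

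Among C1q-high cells without any UMI of Cd3d, Cd3e, Cd3g or Trac, 425 in the cKO-labelled library and 1418 in the WT-labelled library, the gaps were wider. Fcrls was at 8.81 and 142 CPM, 16.2-fold lower (12.5 to 21.4), and Igf1 at 10.8 and 113 CPM, 10.5-fold lower (8.27 to 13.5). Mrc1 was at 100 and 533 CPM, 5.31-fold lower (4.91 to 5.75). Leaving these cells out also moved the make-up, with a median C1q level of 21.5 per 10000 in the cKO-labelled library and 59.2 in the WT-labelled library.

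**Figure D2:**
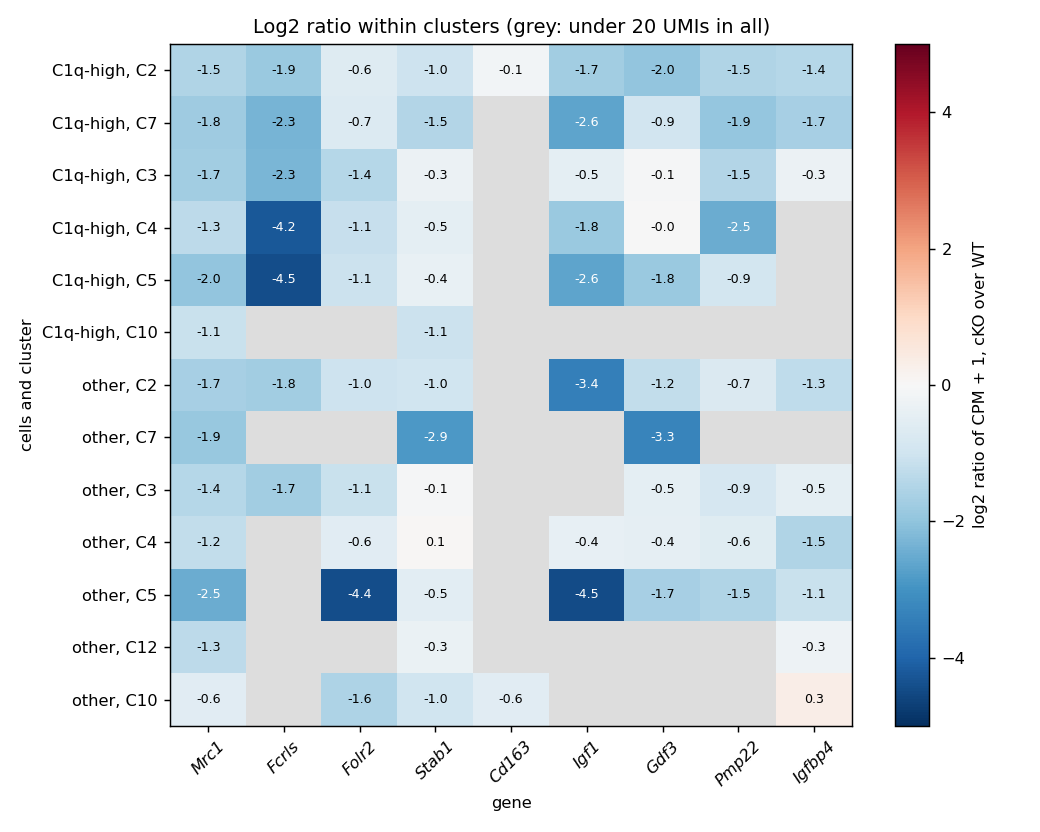
Log2 ratio of CPM, library labelled cKO over library labelled WT (pseudocount 1 CPM), for each gene (columns) in C1q-high and other myeloid cells of the clusters named next (rows), grey where both libraries together have under 20 UMIs. C2 and C7 are macrophage-like, C3, C4, C5 and C12 monocyte-like and C10 cDC2-like. For C12 only the other cells are shown, and the neutrophil-like and mature DC-like clusters are left out. Mrc1 is lower in every row shown, while Gdf3 is near 0 in C1q-high cells of C3 and C4, and Stab1 in the other cells of C3 and C4.

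Cluster by cluster, Mrc1, Fcrls, Folr2 and Pmp22 were low in each of 5 clusters, and Stab1 and Gdf3 in 3. Of the C1q-high cells, cluster C2, led by C1qa, Ms4a7 and Apoe, held 180 and 1465, and cluster C7, led by histone and mitotic genes, held 38 and 557. Monocyte-like cluster C3, led by Vcan and Il1b, held 152 and 274, C4, led by interferon-induced genes such as Ifit2 and Rsad2, held 256 and 52, and C5, led by Cxcl3, Egln3 and Mmp12, held 46 and 125. The interval of the ratio lay under 1 in all 5 for Mrc1, Fcrls, Folr2 and Pmp22, in 4 for Igf1, in 3 for Stab1 and Gdf3, and in 2 for Igfbp4. It lay above 1 in none of the 5 for any member.

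Stab1 and Gdf3 are given cluster by cluster, a choice made after their values were seen. In C2, Stab1 was at 196 CPM in the cKO-labelled library and 397 CPM in the WT-labelled library, whereas in C3 it was at 71.1 and 87.7 CPM, with an interval of the ratio from 0.657 to 1.0003. In C1q-high cells of C4 it was at 85.1 and 119 CPM, 1.40-fold lower (1.06 to 1.83). In the other cells of C3 it was at 43.4 and 45.9 CPM, and in those of C4 at 47.9 and 46.2 CPM, with intervals of the ratio from 0.794 to 1.13 and from 0.776 to 1.42. Gdf3 was at 18.8 and 76.6 CPM in C2 but at 23.0 and 23.9 CPM in C3 and 18.3 and 18.4 CPM in C4. The difference between clusters could not be tested with 1 library per label.

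Mrc1 differed in the same monocyte-like cells. In C3 it was at 89.7 CPM in C1q-high cells of the cKO-labelled library and 303 CPM in those of the WT-labelled library, and at 43.6 and 118 CPM in the other cells of that cluster. In C5, whose leading genes include the hypoxia-induced Egln3 and Ndrg1, Pmp22 was at 90.6 and 172 CPM in C1q-high cells and at 47.9 and 138 CPM in the others. Igf1 in C5 was at 18.5 and 121 CPM in C1q-high cells and at 1.20 and 47.7 CPM in the others. Folr2 in the other C5 cells was at 0.399 CPM, from 1 UMI, and 28.9 CPM. Over all monocyte-like cells 4 of the 6 members tested were lower, where 2.70% of 7252 genes were lower and 3.70% higher, and Stab1 was not among the 4, at 47.7 and 56.4 CPM. Of the 4, Folr2 (2.94 and 14.8 CPM), Igf1 (2.02 and 18.5 CPM) and Pmp22 (8.92 and 37.8 CPM) passed the filter through the WT-labelled library alone, which fixed their direction. The other was Mrc1. Gdf3 (8.30 and 12.9 CPM) passed in the same way but fell short of 1.5-fold. In cDC2-like cells 2 of the 3 members tested, Mrc1 (36.1 and 60.4 CPM) and Stab1 (4.47 and 12.9 CPM), were lower, where 3.15% of 7685 genes were lower and 2.71% higher. Stab1 passed the filter through the WT-labelled library alone, which fixed its direction.

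Cells were next compared at like C1q levels. In the lowest bin, 5 to 10 C1q UMIs per 10000, Mrc1 was at 67.9 CPM in 134 cells of the cKO-labelled library and 168 CPM in 262 cells of the WT-labelled library. In the highest, 100 or more, it was at 197 CPM in 63 cells and 548 CPM in 581 cells. Mrc1, Fcrls, Igf1, Pmp22 and Igfbp4 had intervals of the ratio under 1 in all 5 bins. Folr2 did not in the highest bin, where it was at 150 CPM in the cKO-labelled library and 131 CPM in the WT-labelled library (ratio 1.15, 0.996 to 1.33). Stab1, at 75.7 and 79.9 CPM, and Gdf3, at 16.6 and 18.8 CPM, did not in the lowest bin. Fcrls ran from 1.66 to 46.1 CPM over the 5 bins in the cKO-labelled library and from 18.3 to 213 CPM in the WT-labelled library, so both libraries had more of it in cells with more C1q.

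**Figure D3:**
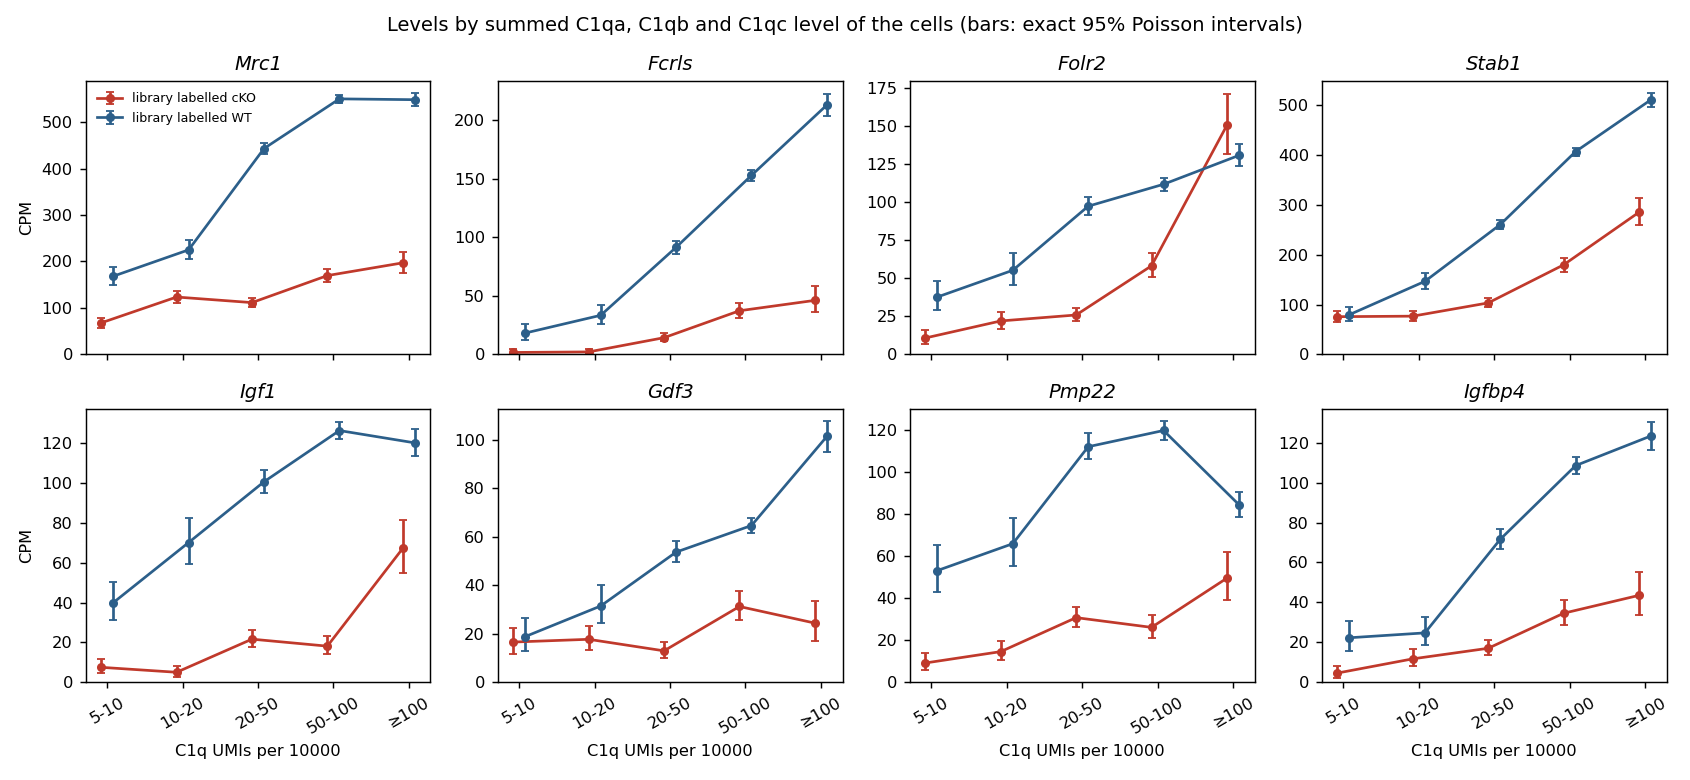
Level of each gene except Cd163 (CPM) against the C1q level of the cells (5 bins of C1qa, C1qb and C1qc UMIs per 10000) in the library labelled cKO and the library labelled WT, with 95% exact Poisson intervals. Mrc1 lies at 67.9 to 197 CPM in the library labelled cKO and at 168 to 550 CPM in the library labelled WT, and Folr2 is at 150 and 131 CPM in the highest bin.

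Just outside the threshold, at 4 to 5 C1q UMIs per 10000, were 28 myeloid cells of the cKO-labelled library and 128 of the WT-labelled library. Just inside, at 5 to 6, were 35 and 91. Mrc1 was at 58.2 and 102 CPM just outside and at 74.9 and 142 CPM just inside. Stab1 was at 72.8 and 73.7 CPM just outside and at 54.5 and 75.5 CPM just inside. The other members had at most 31 UMIs in any of these 4 sets of cells.

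The share of cells with a UMI of each gene was compared after thinning every C1q-high cell to 6964 UMIs, which left out 78 shallower cells of the cKO-labelled library and 536 of the WT-labelled library. Mrc1 was then found in 30.6% of 635 cells (27.0 to 34.3) in the cKO-labelled library and 81.5% of 2146 cells (79.8 to 83.2) in the WT-labelled library, and in 40.3% and 80.0% before thinning. Stab1 was found in 43.6% and 74.5%, and in 61.7% and 77.0% before thinning. Fcrls was found in 7.40% and 43.5%, Folr2 in 11.3% and 37.2%, Igf1 in 5.83% and 37.2%, Gdf3 in 6.93% and 22.6%, Pmp22 in 8.98% and 35.2%, and Igfbp4 in 7.24% and 38.2%. Before thinning these 6 genes were found in 10.9% to 21.5% of cells in the cKO-labelled library and 26.8% to 50.8% in the WT-labelled library. In cells with at least 1 Mrc1 UMI, the thinned mean was 2.55 UMIs in the cKO-labelled library and 4.29 in the WT-labelled library. Folr2 differed less in this respect, with 1.97 and 1.89 UMIs per cell that had it.

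B, T and NK cells, which should lack most of these genes, gave the level of stray RNA. Thinned to 2383 UMIs, 0.472% of 4876 such cells in the cKO-labelled library and 3.77% of 3921 in the WT-labelled library had a Mrc1 UMI. Their median depths were 6101 and 3335 UMIs. For Fcrls, Folr2, Igf1, Gdf3 and Pmp22 the shares were 0.0615% to 0.144% and 0.714% to 1.07%. The share of these lymphoid cells over the C1q threshold was 1.34% (68 of 5063) in the cKO-labelled library and 17.4% (853 of 4901) in the WT-labelled library. C1q UMIs in lymphoid cells were thus more frequent in the WT-labelled library.

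The ratio of members to C1q in C1q-high cells was set beside that in lymphoid cells of the same library. In the cKO-labelled library C1q-high cells had 28.9 Mrc1 UMIs (27.6 to 30.2) per 1000 C1q UMIs and lymphoid cells 45.9 (35.8 to 58.0), and Stab1, at 29.1 and 119, and Fcrls, at 4.17 and 9.83, were also higher per C1q UMI in lymphoid cells. In the WT-labelled library Mrc1 was at 71.1 (70.2 to 72.0) in C1q-high cells and 71.7 (64.3 to 79.8) in lymphoid cells, with Gdf3 at 9.48 and 9.39 and Pmp22 at 15.2 and 15.6. Fcrls there was at 20.1 (19.6 to 20.6) in C1q-high cells and 14.9 (11.6 to 18.9) in lymphoid cells. Igfbp4 in the WT-labelled library was at 13.8 per 1000 C1q UMIs in C1q-high cells and 75.3 in lymphoid cells. The part of stray RNA in the members' values of the other myeloid cells was not tested by these ratios. With the mean level of the lymphoid cells subtracted, the Mrc1 log2 ratio was -1.91 in C1q-high cells, where it was -1.94 without this, and -1.77 in the other myeloid cells, where it was -1.91.

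The number of members found per cell was compared next. A C1q-high cell thinned to 6964 UMIs held a mean of 1.22 of the 9 genes in the cKO-labelled library and 3.71 in the WT-labelled library. None was found in 245 of 635 cells (38.6%, 34.8 to 42.5) and 100 of 2146 cells (4.66%, 3.81 to 5.64). At least 3 were found in 102 cells (16.1%, 13.3 to 19.2) and 1548 cells (72.1%, 70.2 to 74.0), and at least 5 in 18 cells (2.83%) and 776 cells (36.2%). No cell of either library held all 9.

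**Figure D4:**
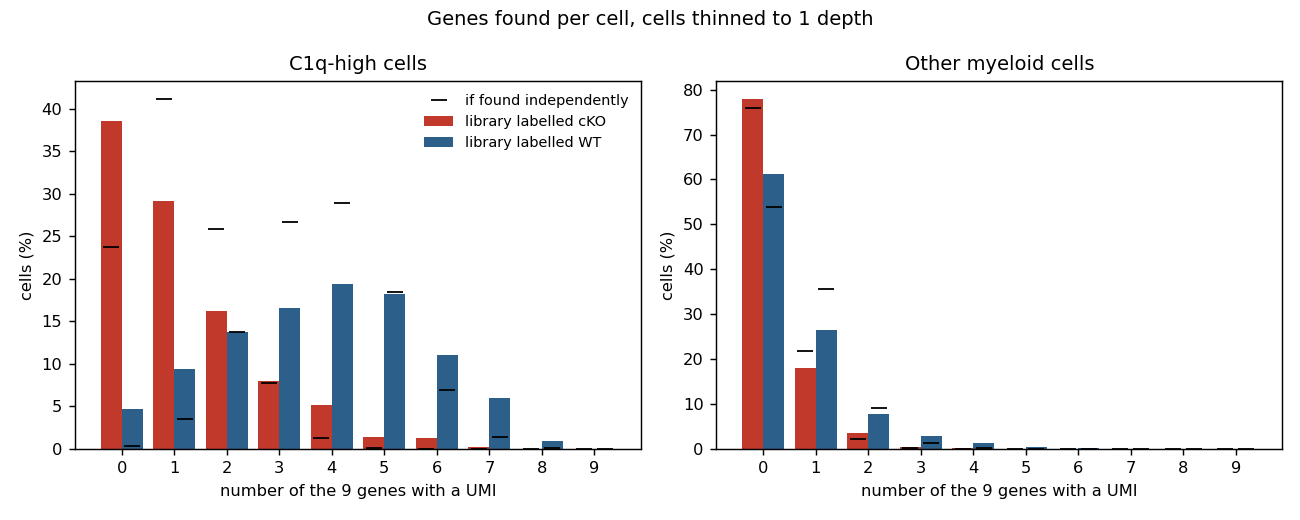
Share of cells (%) by how many of the 9 genes had a UMI, in C1q-high cells thinned to 6964 UMIs (left) and other myeloid cells thinned to 4950 UMIs (right), for the library labelled cKO and the library labelled WT, with black marks for the share if the genes were found independently of each other. Of the C1q-high cells 38.6% hold none in the library labelled cKO and 4.66% in the library labelled WT, and of the other myeloid cells 78.0% and 61.3%.

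In both libraries the members occurred together more than their single shares give. Among the 21 pairs of Mrc1, Fcrls, Folr2, Stab1, Igf1, Pmp22 and Igfbp4, cells with both genes were 1.21 to 5.11 times the product of the 2 shares in the cKO-labelled library (median 2.32) and 1.06 to 1.46 times in the WT-labelled library (median 1.18). Fcrls and Igf1, in 14 cells together, had the highest multiple in the cKO-labelled library. A gene found in most cells can reach only a low multiple, so the multiples of the libraries are not comparable. Gdf3 lay nearer to 1, with 0.614 to 1.88 over its 7 pairs in the cKO-labelled library and 1.02 to 1.12 in the WT-labelled library. In the WT-labelled library the 10% of cells richest in Gdf3 held 70.3% of its UMIs, whereas the 10% richest in Mrc1 held 33.2% of Mrc1 UMIs.

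Cells with 3 or more members lay mostly in macrophage-like clusters. Of these, 85.3% in the cKO-labelled library and 94.9% in the WT-labelled library did so, against 13.1% and 30.0% of the cells with none. A list of 10 monocyte genes summed to 3393 CPM in the cells with 3 or more members of the cKO-labelled library and 1398 CPM in those of the WT-labelled library, and to 9334 and 6667 CPM in cells with none. MHC class II genes, which present antigen, summed to 8952 and 3874 CPM with 3 or more members and to 20676 and 19566 CPM with none. These cells were deeper before thinning, with medians of 30266 and 20803 UMIs, against 15401 and 10561.5 UMIs in cells with none. The cells were grouped by genes measured in the same UMIs, so these sums are descriptions.

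Over the named cell classes, macrophage-like cells had the highest level of every member except Cd163 among 9 immune classes of both libraries, although for Igfbp4 in the cKO-labelled library the interval overlapped that of mature DC-like cells. Mrc1 was at 176 CPM (167 to 185) in macrophage-like cells of the cKO-labelled library and 528 CPM (522 to 535) in those of the WT-labelled library. Next came mature DC-like cells, at 59.8 and 211 CPM, and then monocyte-like cells, at 36.3 and 140 CPM. In the cKO-labelled library monocyte-like and cDC2-like cells, at 36.3 and 36.1 CPM, could not be told apart for Mrc1. Stab1 was at 175 and 401 CPM in macrophage-like cells, and in monocyte-like cells at 47.7 and 56.4 CPM. The mature DC-like class held 83 and 124 cells, of which 12 and 47 were C1q-high.

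Cd163 and Igfbp4 had other sources. Cd163 was highest in pDC-like cells, named from plasmacytoid dendritic cell markers, at 17.2 CPM (9.84 to 28.0, from 16 UMIs) in the cKO-labelled library and 7.78 CPM (4.14 to 13.3, from 13 UMIs) in the WT-labelled library. It came second in cDC2-like cells, at 2.68 and 4.50 CPM, and these 2 classes overlapped in the WT-labelled library. Igfbp4 was at 33.0 and 104 CPM in macrophage-like cells and at 13.2 and 24.5 CPM in T cell-like cells. In melanocytic-like cells, which numbered 22 and 175 in spite of the CD45 sort, Igfbp4 was at 62.2 and 75.5 CPM, above the macrophage-like cells of the cKO-labelled library. The melanocytic gene Pmel was at 3.72 CPM in C1q-high cells of the cKO-labelled library and 20.1 CPM in those of the WT-labelled library, and its part in the Igfbp4 values was not tested.

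**Figure D5:**
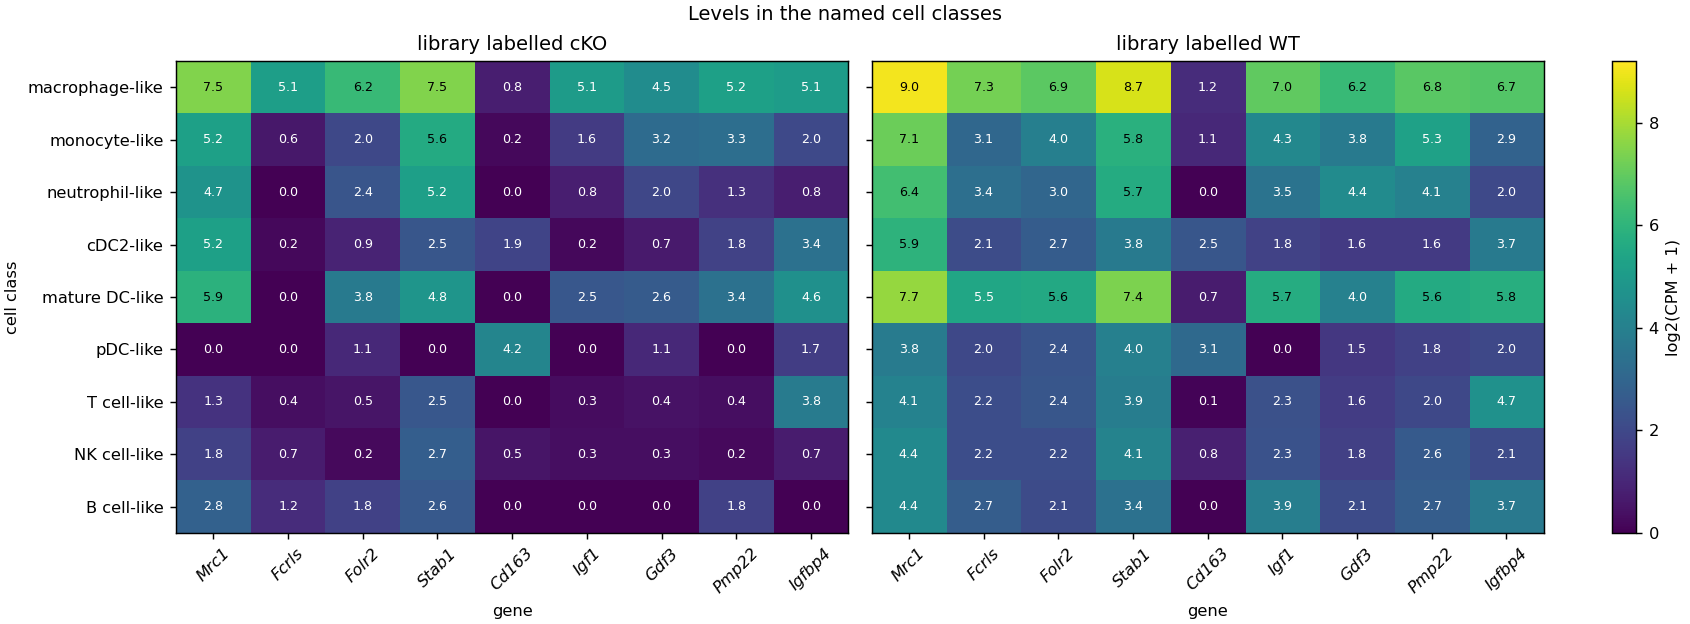
Level of each gene as log2(CPM + 1) in 9 named cell classes (rows) of the library labelled cKO (left) and the library labelled WT (right). Macrophage-like cells have the highest value of every gene except Cd163, which is highest in pDC-like cells.

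Each gene's profile over these 9 classes in both libraries, 18 points that share their libraries and depth, was set beside the mean of the other members. Pearson's r was 0.95 for Folr2, 0.93 for Pmp22, 0.92 for Igf1 and 0.91 for Gdf3, lower for Igfbp4 (0.70), and -0.19 for Cd163. Among 5171 other genes of at least 50 CPM in some class, the most alike in profile to the members were Cbr2 (r = 0.94), which encodes a carbonyl reductase, Vat1 (0.94), C1qa (0.93), the adhesion molecule Vcam1 (0.93), C1qb (0.93), C1qc (0.93), Ms4a7 (0.92), Rnase4 (0.92), the platelet factor 4 gene Pf4 (0.92) and Cenpb (0.91). C1qa, C1qb, C1qc and Ms4a7 were among the markers that named the macrophage-like class, so nothing is read from their likeness. Vcam1 was at 15.5 CPM in C1q-high cells of the cKO-labelled library and 64.1 CPM in those of the WT-labelled library.

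Lists of related genes placed the members among their pathways in C1q-high cells. Of 23 resident macrophage genes 13 were tested, of which 6 were lower and 1 higher, with a median log2 ratio of -0.39. Over all genes tested 9.53% were lower and 9.12% higher, with a median of -0.07. Pf4 was at 275 CPM in the cKO-labelled library and 1778 CPM in the WT-labelled library, Gas6, a ligand of phagocytic receptors, at 18.0 and 100 CPM, and Cbr2 at 17.1 and 72.0 CPM. The chemokine Ccl24 was the 1 higher gene, at 28.9 and 5.22 CPM. It passed the filter through the cKO-labelled library alone, which fixed its direction. Defining genes of settled resident macrophages were nearly silent in both libraries, with Lyve1 at 1.09 and 0.506 CPM, Timd4 at 2.24 and 0.283 CPM, and no UMI of Vsig4 or Clec4f. Resident-like is thus not borne out by those markers.

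Other genes of uptake are given beside the 9.53% of all tested genes that were lower and the 9.12% that were higher, with a median of -0.07. Of 12 scavenger and uptake receptors tested (median -0.18), 3 were lower, namely Cd36 (106 and 194 CPM), the apoptotic cell receptor Mertk (12.9 and 28.0 CPM) and Cd93 (117 and 227 CPM). Axl, a relative of Mertk, was higher, at 127 and 67.7 CPM, and the other 8 were within 1.5-fold. For Cd163's pathway, 11 haem and iron genes were tested, of which 4 were lower and 1 higher (median -0.49). They included Hmox1, which encodes the haem-degrading enzyme, at 463 and 770 CPM, and the haem transporter gene Slc48a1, at 60.2 and 126 CPM. Hp, which encodes haptoglobin and is also in the list of monocyte genes, was higher, at 63.0 and 18.7 CPM. For Folr2's pathway, 8 folate genes were tested, of which 2, Tyms (20.5 and 40.4 CPM) and Mthfd1 (10.7 and 19.0 CPM), were lower and none higher (median 0.04). Tyms is also in the list of cell cycle genes.

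The partners of the secreted members are given next, beside 9.53% lower and 9.12% higher over all genes tested. Of 4 insulin-like growth factor genes tested none was lower and 1 higher (median 0.17), Igfbp6, at 10.7 and 4.03 CPM. Igfbp6 passed the filter through the cKO-labelled library alone, which fixed its direction. The receptor genes Igf1r (10.3 and 11.97 CPM) and Igf2r (28.8 and 28.9 CPM) and the adaptor gene Irs2 (65.5 and 51.7 CPM) were within 1.5-fold. Of 8 tested genes for receptors and mediators of GDF and activin ligands, none was lower and 1 was higher (median 0.01), Inhba, which encodes an activin subunit, at 63.2 and 13.2 CPM. Smad1, at 25.3 and 29.2 CPM, was within 1.5-fold.

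Programmes of other macrophage states lay on both sides. They are given beside 9.53% lower and 9.12% higher over all genes tested in C1q-high cells. Of 12 genes known from Trem2-positive lipid-associated macrophages 6 were lower and 1 higher (median -0.59), with Trem2 at 207 and 507 CPM and Apoe at 1482 and 3964 CPM. Of 10 genes of alternative activation, a state for which Mrc1 is often used as a marker, none was lower and 5 were higher (median 0.54), among them Chil3 at 341 and 74.1 CPM and Il10 at 71.3 and 45.4 CPM. Chil3 is also in the list of monocyte genes. In the other myeloid cells the list of alternative activation gave 4 lower and none higher of 11, where 2.45% of all tested genes were lower and 3.08% higher.

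Several other lists differed between the libraries, some in the direction of the members and some in the opposite direction. Over all genes tested in C1q-high cells, 9.53% were lower and 9.12% higher. All 18 tested interferon gamma response genes were higher in C1q-high cells of the cKO-labelled library (median 1.499), as were all 8 MHC class II genes (median 1.48) and 9 of 10 monocyte genes (median 1.67). Cxcl9 was at 859 and 187 CPM, H2-Ab1 at 3199 and 1131 CPM, and Ly6c2 at 1095 and 309 CPM. In the other myeloid cells none of the 8 MHC class II genes passed 1.5-fold (sums of 15537 and 14722 CPM). There 12 of 18 interferon gamma genes were higher, and 1 of 10 monocyte genes was higher and 2 lower. Among all genes tested in those cells 2.45% were lower and 3.08% higher. Of 18 cell cycle genes 17 were lower in C1q-high cells and none higher (median -1.16), with Stmn1 at 101 and 266 CPM. Of 5 melanocytic genes 4 were lower. Of 15 dissociation stress genes 3 were higher and none lower, and of 10 T cell genes 1 was higher and none lower, with sums of 618 and 558 CPM. The part of these programmes in the members' values was not tested.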

How the data were processed

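The deposited values are raw UMI counts per cell and gene, made by the authors with Cell Ranger 5.0.1 and analysed with Seurat 4.0.4 per the submitters' processing notes, while the matrix headers name cellranger 5.0.0. No source used here gives the counting options. Totals were 121321782 UMIs in the library labelled cKO and 128952491 in the library labelled WT. Kept cells had at least 200 genes (274 and 174 barcodes had fewer) and at most 10% mitochondrial UMIs (1528 and 2221 had more). Scrublet in scanpy 1.11.5 scored doublets, and the highest 0.8% per 1000 cells were removed (779 and 1187 cells). The 2000 most variable genes, 30 principal components and 15 neighbours went into Leiden clustering at resolution 1, with Python 3.11.15, scipy 1.17.1 and igraph 0.11.9.

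A cluster took the name of the marker set with the highest scaled mean if at least 3 markers were each found in 25% of its cells. No name was given where 60% of cells had a UMI of at least 2 among Csf1r, Cd79a and Cd3e, where under 50% had Ptprc in an immune cluster, or where the 10 leading genes favoured another set. No member was in a marker set. Myeloid cells are those of macrophage-, monocyte-, neutrophil-, cDC2- and mature DC-like clusters. A cluster with T cell and myeloid RNA (C6) and one with low Ptprc (C14) were left out.

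UMIs were summed per library and population. CPM has exact Poisson intervals, ratios conditional binomial intervals and shares Clopper-Pearson intervals, all at 95%. They cover counting error only. Log2 ratios are the library labelled cKO over the library labelled WT with a pseudocount of 1 CPM. Fold values with intervals use no pseudocount. For shares, cells were thinned to the percentile 20 depth of whichever library had the lower one. The intervals of the ratios were tested on Poisson counts simulated from a pooled profile, a setting that leaves out uneven spread of UMIs over cells. The members, the 15 lists and the rule for named genes were chosen with earlier results of these data known. Some lists share genes, among them Chil3, Hp, Tyms, Ciita and Gpnmb. All members were named, with the 10 genes most alike in profile, and from each list up to 4 tested genes with the largest absolute ratio. Lyve1, Timd4, Vsig4 and Clec4f were named as a check of the label, after their values were seen. Other cell filters, C1q thresholds, gates, resolutions, scalings and weightings were tried as alternatives. No test was made, because each label has 1 library.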

Additional observations from a re-analysis of the deposited data

How the results depend on the processing

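The count of members at least 1.5-fold lower in C1q-high cells was 8 and stayed 8 under every alternative run, except that it was 9 without a filter on low values. In the other myeloid cells it was 6 and lay between 4 and 8. The share of all tested genes that were lower in C1q-high cells, 9.53%, moved further, to 16.9% with at least 500 genes per cell, 18.1% at resolution 2, 16.6% with a marker gate, 15.2% with cells thinned, 17.9% without T cell UMIs and 24.2% with the mean level of B, T and NK cells subtracted. It was 3.66% in macrophage-like clusters alone, 3.17% with clusters and 5.61% with C1q bins weighted as in the library labelled WT, 4.84% with a pseudocount of 10 CPM and 4.37% without a filter. In the other myeloid cells, where it was 2.45%, it was 15.5% with the gate and 14.1% with the subtraction. No log2 ratio changed sign under any alternative run, except that Igfbp4 in the other myeloid cells came to 0 with the mean level of B, T and NK cells subtracted. In C1q-high cells the log2 ratio of Mrc1 lay between -2.40 and -1.54, of Fcrls between -3.87 and -2.04, of Folr2 between -1.84 and -0.60, of Stab1 between -1.84 and -1.08, of Igf1 between -3.27 and -1.79, of Gdf3 between -2.03 and -1.36, of Pmp22 between -2.53 and -1.58 and of Igfbp4 between -2.70 and -1.50. The log2 ratio of the C1q-high share of myeloid cells was -1.32 and moved to -1.43 with doublets kept, -1.14 at resolution 0.5, -1.47 and -1.79 at C1q thresholds of 10 and 20 per 10000, and -1.12 with a marker gate per cell, and the cause was not tested. The alternatives added after seeing the data were every kept cell over the threshold, cells without T cell UMIs, macrophage-like clusters alone, and the subtraction of the lymphoid level. No paired analysis was possible because each label has 1 library, and for the same reason no replicate could be left out. Cd163, with 8 and 70 UMIs, was too shallow for a statement.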
